A study of Mus musculus with 12 samples.

Results

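Trailers of the isoleucine and valine tRNA genes were read out as tRF-1s, the fragments that start directly after the 3′ end of the mature tRNA. Members were the distinct sequences listed as tRF-1 whose every listed nuclear precursor was pre_tRNA-Ile-AAT or pre_tRNA-Ile-TAT (Ile), or pre_tRNA-Val-AAC, pre_tRNA-Val-CAC or pre_tRNA-Val-TAC (Val). There were 203 such sequences, 116 Ile and 87 Val, of 2100 nuclear tRF-1 sequences and of 87699 sequences in all. They held 2891 reads (2371 Ile and 520 Val) of 1705883 reads. These families were selected on earlier results of the same libraries, in which their tRF-1 sums were higher in NS-KO livers, so that every NS-KO to WT level below is a description and carries no test.

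The libraries came from livers of male B6D2F1/Crl mice of 8 to 12 weeks, either NS-KO, in which NSun2 was disrupted by a CRISPR/Cas9 deletion in exon 2, or wild type (WT). D0 livers had received corn oil, D3 livers were taken 3 days after a single intraperitoneal injection of 40% CCl4 in corn oil at 2 mL/kg, and D27 livers were taken on day 27 of repeated injections. The 6 groups (NS-KO D0, D3 and D27, and WT D0, D3 and D27) had 2 libraries each, and p-values measure the spread between these libraries. The table lists tRNA-derived reads only, so neither the loss of NSun2 nor the cell make-up of the livers could be checked in it.

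A tRNA gene is transcribed by RNA polymerase III, which stops in a run of T on the coding strand, and the primary transcript therefore carries a short tail that ends in U. RNase Z cuts this trailer off at the end of the mature tRNA, and the La protein binds the U-rich end. NSun2 is a methyltransferase that places m5C on tRNAs and protects them from cleavage into 5′ fragments. Ile-AAT tRNAs read isoleucine codons through an inosine in the anticodon. Ile-TAT tRNAs, most of whose genes carry an intron, read the rare AUA codon. Val-AAC, Val-CAC and Val-TAC tRNAs divide the valine codons among them.

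Trailers differ between genes whose mature tRNAs cannot be told apart. The 38 Ile and Val genes had 23 different gene sequences but 38 different trailers, and 17 of them lay on chromosome 13. All 8 Ile-AAT-1 genes shared 1 gene sequence with 8 trailers, as did the 5 Val-CAC-2 genes and the 3 Val-TAC-1 genes with 5 and 3 trailers. Of the 38 genes, 35 coincided with a tRNA gene of RefSeq on GRCm38. tRF-1 reads were found for 14 genes, which were 6 of 12 Ile-AAT, 0 of 5 Ile-TAT, 1 of 8 Val-AAC, 5 of 10 Val-CAC and 2 of 3 Val-TAC genes. The Val-AAC gene had a single read, which the Val-CAC-3-1 trailer also matched. Reads are assigned among the listed tRNAs and precursors only. Whether these reads, many of 14 nt, also match elsewhere in the genome was not checked. For a gene without reads, the limit of 3 reads corresponds to 10.9 to 63.9 CPM (reads per 1000000 tRNA-derived reads of the library), for counting error only.

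The 28 bases after the gene are shown for the trailers that carried most reads. Each is read 5′ to 3′ along the tRNA as the deposited table gives it, without a stated chromosome strand, and capitals mark the run of T in which its reads ended.
pre_tRNA-Ile-AAT-1-5: gtggtagattcTTTTctctaaatcccta
pre_tRNA-Ile-AAT-1-2: gtgtgcttatcTTTTTaaacaaaagcaa
pre_tRNA-Ile-AAT-1-4: gtaaactgcttagaTTTTacaactggaa
pre_tRNA-Ile-AAT-1-6: gtagggattaTTTTcttccatttggtaa
pre_tRNA-Val-CAC-3-1: acacttgtcagtttcTTTTTgtttgttt
pre_tRNA-Val-CAC-2-5: gtttggtacttaTTTTataccgtgaaat
pre_tRNA-Val-CAC-2-3: acttttagactgcgTTTTTacctctcca
pre_tRNA-Val-TAC-1-1: cgtggtgtgctagttaaTTTTTTTcagg
pre_tRNA-Ile-AAT-1-1: aagctgaagcgTTTTTTTaaatactttt

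In GRCm38 coordinates, the tRNA genes ahead of these trailers were Ile-AAT-1-5 (n-TIaat10, chr13:21882033-21882106), Ile-AAT-1-2 (n-TIaat4, chr11:69062320-69062393), Ile-AAT-1-4 (n-TIaat11, chr13:21855320-21855393) and Ile-AAT-1-6 (n-TIaat7, chr13:22029223-22029296). The valine genes were Val-CAC-3-1 (n-TVcac4, chr13:23300122-23300194), Val-CAC-2-5 (n-TVcac9, chr13:23446142-23446214), Val-CAC-2-3 (n-TVcac7, chr11:48818542-48818614) and Val-TAC-1-1 (n-TVtac1, chr19:12011931-12012003). Ile-AAT-1-1 (n-TIaat5) lay at chr11:69037003-69037076. Coordinates span the tRNA gene, and the trailer follows it.

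Over the 12 libraries pooled, a single trailer made up most tRF-1 reads of each family. Ile-AAT-1-5 gave 1945 of the 2371 Ile reads (82.0%, Wilson 95% interval 80.4 to 83.5%) in 53 sequences. Val-CAC-3-1 gave 326 of the 520 Val reads (62.7%, 58.5 to 66.7%). Of the 326, 163 and 90 came from the NS-KO D3 libraries. By library its share of Val tRF-1 reads ran from 9.09 to 85.7%, so the pooled share describes no single group. Ile-AAT-1-2 followed with 178 reads, Ile-AAT-1-4 with 136, Val-CAC-2-5 with 100, Ile-AAT-1-6 with 84 and Val-CAC-2-3 with 57. The remaining trailers, Ile-AAT-1-3, Val-CAC-2-4, Val-TAC-1-1, Ile-AAT-1-1, Val-CAC-2-1 and Val-TAC-1-3, had between 1 and 24 reads each. Of the 203 sequences, 100 were seen in a single read, and 4, all Ile, had reads in all 12 libraries. Intervals and floors cover counting error only, since reads were counted without molecular identifiers.

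The tRF-1s ended in the run of T. Of 2890 reads that belong to 1 trailer, 2865 (99.1%) ended in it, although this share is largely set by how tRF-1 is defined in the table, where 41 reads from the first trailer base were listed as Other. Ile reads were short, with 69.6% at 14 nt, the shortest length kept, and 93.3% at 14 or 15 nt. Val reads were longer, with 73.8% at 17 to 19 nt. Ile-AAT-1-5 reads stopped at base 14 in 75.1%, within a run at bases 12 to 15, and Ile-AAT-1-6 reads stopped at base 14 in 95.2%, at the last T of a run at bases 11 to 14. The Ile-AAT-1-4 run lies later, at bases 15 to 18, and 60.3% of its reads ended at base 18. For Val-CAC-3-1, whose run covers bases 16 to 20, 69.3% ended at base 18. Val-CAC-2-3 also has 4 T at bases 3 to 6, and none of its reads ended there, since a fragment of that length is below the shortest read kept.

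**Figure D1:**
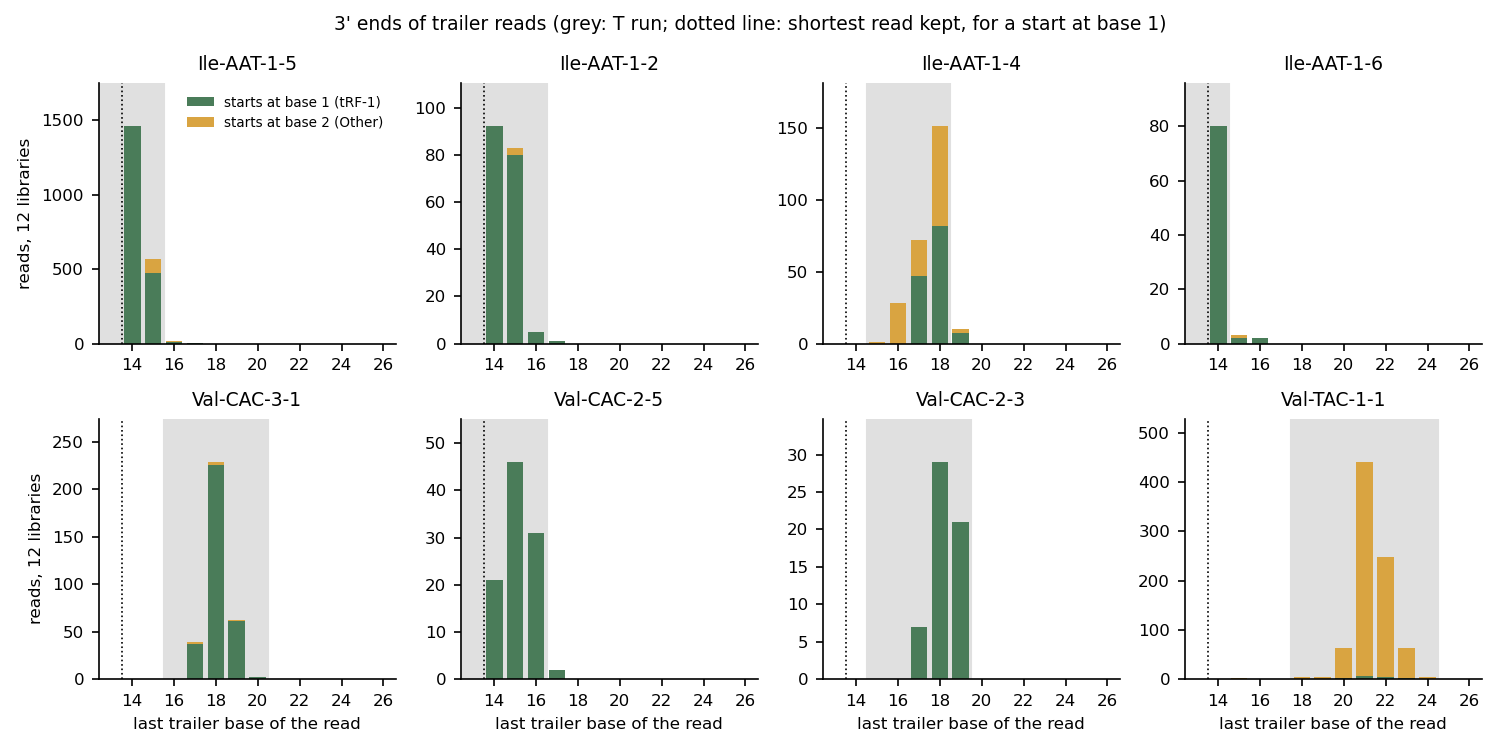
Reads (vertical axis) by the trailer base at which they end (horizontal axis, base 1 is the first after the mature tRNA), 1 panel per trailer. Bars split reads that start at base 1 (tRF-1) from those that start at base 2, shading marks the run of T, and the dotted line the shortest read kept. Ile-AAT-1-5 peaks at base 14, at that limit, and Val-CAC-3-1 at base 18.

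The place of a trailer's first run of 4 or more T was set beside its reads. In 18 of the 38 genes it ended at base 14 or later, and 13 of these had tRF-1 reads. In 14 genes it ended before base 14, and only Val-CAC-2-3, with its later run, had tRF-1 reads. In 6 genes no such run lay in the 40 bases listed, and none had tRF-1 reads. Among these, Ile-AAT-2-1, Val-CAC-4-1 and Val-CAC-8-1 were listed with 81, 90 and 147 other trailer reads, neither tRF-1 nor from base 2. Among the Ile-TAT genes, 4 had an early run and 1 had none. Trailers that end before base 14 are below the shortest read kept, so a count of 0 there says nothing about their abundance. The following examples show a run too early to be read, in Ile-TAT-2-1 (n-TItat14, chr13:21896938-21897031), and a run that ended at base 14 in a trailer with no tRF-1 read, in Val-AAC-4-1 (n-TVaac6, chr13:23298781-23298853).
pre_tRNA-Ile-TAT-2-1: tgTTTTcttccctttccgcctcaaacac
pre_tRNA-Val-AAC-4-1: gtgcctttcTTTTTcttctcactttctc

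**Figure D2:**
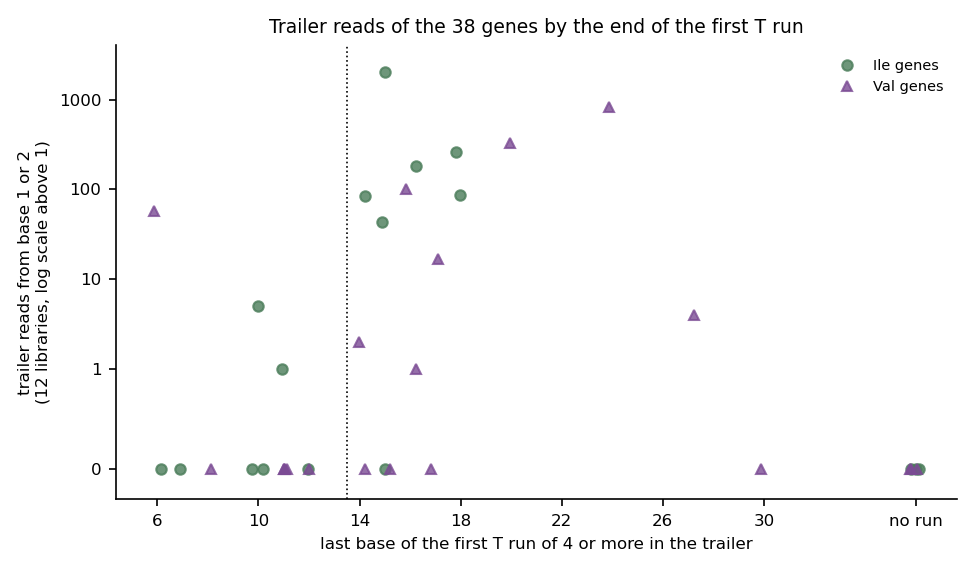
Reads from base 1 or 2 over 12 libraries (vertical axis, log scale above 1) against the base at which the first run of 4 or more T ends (horizontal axis, points shifted slightly sideways so that they do not hide each other), 1 point per Ile or Val tRNA gene. Of the 14 genes with a run ending before base 14, left of the dotted line, Val-CAC-2-3 had 57 reads, Ile-TAT-2-3 had 5 and Ile-TAT-1-1 had 1, against reads in 13 of 18 genes with a later run.

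Some trailers were read mainly from their second base, a start that the table lists as Other and that the tRF-1 sums leave out. The Val-TAC-1-1 trailer had 814 reads from base 2 and 16 from base 1 (98.1% from base 2, Wilson 95% interval 96.9 to 98.8%), with 98.0% in NS-KO and 98.2% in WT livers. Ile-AAT-1-1 had 83 reads from base 2 and 4 from base 1 (95.4%, 88.8 to 98.2%). Ile-AAT-1-4 was divided nearly evenly, with 126 and 136 reads (48.1%, 42.1 to 54.1%). By contrast, Ile-AAT-1-5 had 97 reads from base 2 against 1945 (4.75%), Val-CAC-3-1 had 6 against 326 (1.81%), and Val-CAC-2-5 and Val-CAC-2-3 had 0. A read from base 2 must end at base 15 or later to reach 14 nt. When reads of Ile-AAT-1-5 were compared over ends at base 15 or later, 16.7% started at base 2. With both starts, Val-TAC-1-1 was the valine trailer with most reads.

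These base 2 reads, whose class was not set by their 3′ end, also stopped in the run of T. Of 1159 such reads of Ile and Val trailers, 1140 (98.4%) ended in the run that ends at base 14 or later. The Val-TAC-1-1 reads ended at base 21 in 53.4%, within a run at bases 18 to 24, and 99.5% of them ended in that run. Ile-TAT-2-3 had 5 base 2 reads, and 4 of them ended at base 34, in a later run.

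The last base was not always the T of the genome. Among Ile-AAT-1-5 reads of 14 nt that matched in the first 13 bases, 82.1% ended in T, 11.1% in C, 5.73% in A and 1.12% in G. In NS-KO livers 11.0% ended in C (127 reads) and 6.23% in A (72 reads). In WT livers 11.6% ended in C (22 reads) and 2.65% in A (5 reads). Of the 72 NS-KO reads in A, 46 and 19 came from the D3 libraries. Among 15 nt reads of this trailer the order in A was reversed, with 12.47% in NS-KO (47 reads) and 18.97% in WT livers (11 reads). Reads with a mismatch made up 27.2% of Ile and 29.4% of Val tRF-1 reads. Not all mismatches lay at the last base. In Ile-AAT-1-3, sequences with an internal C in place of T held 12 and 4 reads from base 1 and 10 from base 2. All of these came from WT libraries. Trailer reads with the T came from NS-KO libraries, except 1 from base 1 and 1 from base 2 in WT D3 replicate 2. Whether the NS-KO and WT mice differ in sequence there was not tested.

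Library composition differed before any trailer was considered. Totals were 46937 to 221446 reads in NS-KO and 81515 to 275568 reads in WT libraries, and Ile and Val tRF-1 reads together numbered 43 to 1127 per library. tRF-5c, the long 5′ fragments, took 12.5 to 30.4% of reads in NS-KO libraries and 60.9 to 71.5% in 5 WT libraries, whereas WT D3 replicate 1 stood apart with 35.6%. Mitochondrial reads took 34.8 to 57.4% in NS-KO and 8.75 to 22.6% in WT libraries. Because a share of all reads moves with these classes, levels are also given as CPM of the reads that are not tRF-5c, and fold changes use TMM factors. The part of composition in the results below was not tested. Fewer cells making a trailer and less of it per cell cannot be told apart in these bulk samples.

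Ile tRF-1s were higher in every NS-KO library than in every WT library. Ile tRF-1s stood at 2160 and 2471 CPM in NS-KO D0, 4195 and 4634 CPM in NS-KO D3 and 1575 and 2173 CPM in NS-KO D27 livers, against 214 and 254 CPM in WT D0, 1337 and 414 CPM in WT D3 and 402 and 123 CPM in WT D27 livers. The highest WT value was that of the WT D3 library that stood apart, and the other 5 WT libraries reached at most 414 CPM. Without tRF-5c reads in the total, the ranges were 2094 to 6025 CPM in NS-KO and 406 to 2077 CPM in WT livers, the lowest NS-KO value lying just above the highest WT value. On the log2 scale with TMM factors the difference over days was 2.07 (SE 0.19).

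Val tRF-1s gave 410 and 511 CPM in NS-KO D0, 894 and 825 CPM in NS-KO D3 and 532 and 574 CPM in NS-KO D27 livers, against 26.3 and 118 CPM in WT D0, 393 and 114 CPM in WT D3 and 109 and 32.7 CPM in WT D27 livers. The NS-KO and WT values did not overlap in CPM, but they did in CPM of the reads that are not tRF-5c. Over days the log2 difference was 1.74 (SE 0.28). Over reads from base 1 or 2, the Val family overlapped in CPM too (lowest NS-KO value 1045, highest WT value 1153). The Ile family then did not overlap in CPM (1724 against 1705), but did per reads that are not tRF-5c (2292 against 2649). Both tRF-1 family sums, 2 of 2, had all NS-KO libraries above all WT libraries in CPM. So had 19 of all 173 sums by subtype and amino acid (11.0%). Without tRF-5c reads in the total, 1 of the 2 had, against 5 of all 173. Nothing is read from these counts, since the families were chosen by this contrast.

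The leading trailer of each family was likewise higher in every NS-KO library than in every WT library. Ile-AAT-1-5 had 1610 and 1917 CPM in NS-KO D0, 3599 and 4021 CPM in NS-KO D3 and 1320 and 1773 CPM in NS-KO D27 livers, against 146 and 173 CPM in WT D0, 908 and 274 CPM in WT D3 and 306 and 94.3 CPM in WT D27 livers. Val-CAC-3-1 had 169 and 213 CPM in NS-KO D0, 736 and 707 CPM in NS-KO D3 and 277 and 226 CPM in NS-KO D27 livers, against 3.75 and 37.2 CPM in WT D0, 36.8 and 10.3 CPM in WT D3 and 57.5 and 14.5 CPM in WT D27 livers. In both, this also held in CPM of the reads that are not tRF-5c. On that scale 12 of all 625 sums by subtype and set of tRNAs had all NS-KO above all WT libraries. At D3 the fitted log2 difference of Val-CAC-3-1 was 4.40 (SE 0.54), against 1.86 at D0 and 1.41 at D27.

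Other trailers overlapped between genotypes. Ile-AAT-1-2 had 339 and 298 CPM in NS-KO D0, 235 and 283 CPM in NS-KO D3 and 149 and 104 CPM in NS-KO D27 livers, against 26.3 and 6.19 CPM in WT D0, 184 and 41.4 CPM in WT D3 and 38.3 and 7.26 CPM in WT D27 livers. Ile-AAT-1-4 had 98.8 and 85.2 CPM in NS-KO D0, 230 and 228 CPM in NS-KO D3 and 106 and 104 CPM in NS-KO D27 livers, against 18.8 and 37.2 CPM in WT D0, 85.9 and 36.2 CPM in WT D3 and 51.1 and 3.63 CPM in WT D27 livers. In these, as in Val-CAC-2-5, WT D3 replicate 1 was the only WT library that reached the NS-KO range in CPM. Per reads that are not tRF-5c this held for Ile-AAT-1-2 only. On that scale Ile-AAT-1-4 had 104, 133 and 131 CPM in WT D0 replicate 2, D3 replicate 1 and D27 replicate 1, above the lowest NS-KO value of 97.4. Val-CAC-2-5 had 156, 343 and 134 CPM in WT D0 replicate 2 and both WT D3 libraries, above its lowest NS-KO value of 86.2. Ile-AAT-1-6 ranged from 0 to 149 CPM in NS-KO and from 6.39 to 110 CPM in WT livers.

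Val-CAC-2-5 had 127 and 107 CPM in NS-KO D0, 90.3 and 70.7 CPM in NS-KO D3 and 149 and 139 CPM in NS-KO D27 livers, against 11.3 and 55.7 CPM in WT D0, 221 and 51.7 CPM in WT D3 and 6.39 and 3.63 CPM in WT D27 livers. Its highest value was that of WT D3 replicate 1. Val-CAC-2-3 had 70.6 and 63.9 CPM in NS-KO D0, 31.6 and 39.3 CPM in NS-KO D3 and 63.9 and 104 CPM in NS-KO D27 livers, against 7.51 and 18.6 CPM in WT D0, 110 and 31.0 CPM in WT D3 and 31.9 and 10.9 CPM in WT D27 livers. Over days the log2 differences were 0.83 (SE 0.30) for Val-CAC-2-5 and 0.27 (SE 0.25) for Val-CAC-2-3, smaller than for Val-CAC-3-1 (2.56, SE 0.31). At D27 alone the order of Val-CAC-2-5 (2.11, SE 0.52) and Val-CAC-3-1 (1.41, SE 0.54) was the other way round. Val-CAC-2-4, the fourth valine trailer, had 0 and 107 CPM in NS-KO D0, 18.1 and 0 CPM in NS-KO D3 and 0 and 34.8 CPM in NS-KO D27 livers, against 0 and 0 CPM in WT D0, 24.5 and 15.5 CPM in WT D3 and 0 and 3.63 CPM in WT D27 livers. Of the 7 trailers with enough reads for a fit, 2 had no overlap, against 46 of all 625 sums by subtype and set of tRNAs (7.36%). Nothing is read from this count, or from that per reads that are not tRF-5c. The families were chosen by this contrast, and the filter on reads can be met by NS-KO libraries alone.

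Base 2 reads of Val-TAC-1-1 had 635 and 1640 CPM in NS-KO D0, 781 and 1288 CPM in NS-KO D3 and 852 and 1687 CPM in NS-KO D27 livers, against 60.1 and 136 CPM in WT D0, 761 and 264 CPM in WT D3 and 236 and 109 CPM in WT D27 livers. The NS-KO and WT sets overlapped only through WT D3 replicate 1. With both starts the log2 difference over days was 1.60 (SE 0.27). Ile-AAT-1-1, also read from base 2, was different, with 0 to 139 CPM from base 2 in NS-KO and 18.8 to 172 CPM in WT livers and a log2 difference with both starts of −0.18 (SE 0.40).

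**Figure D3:**
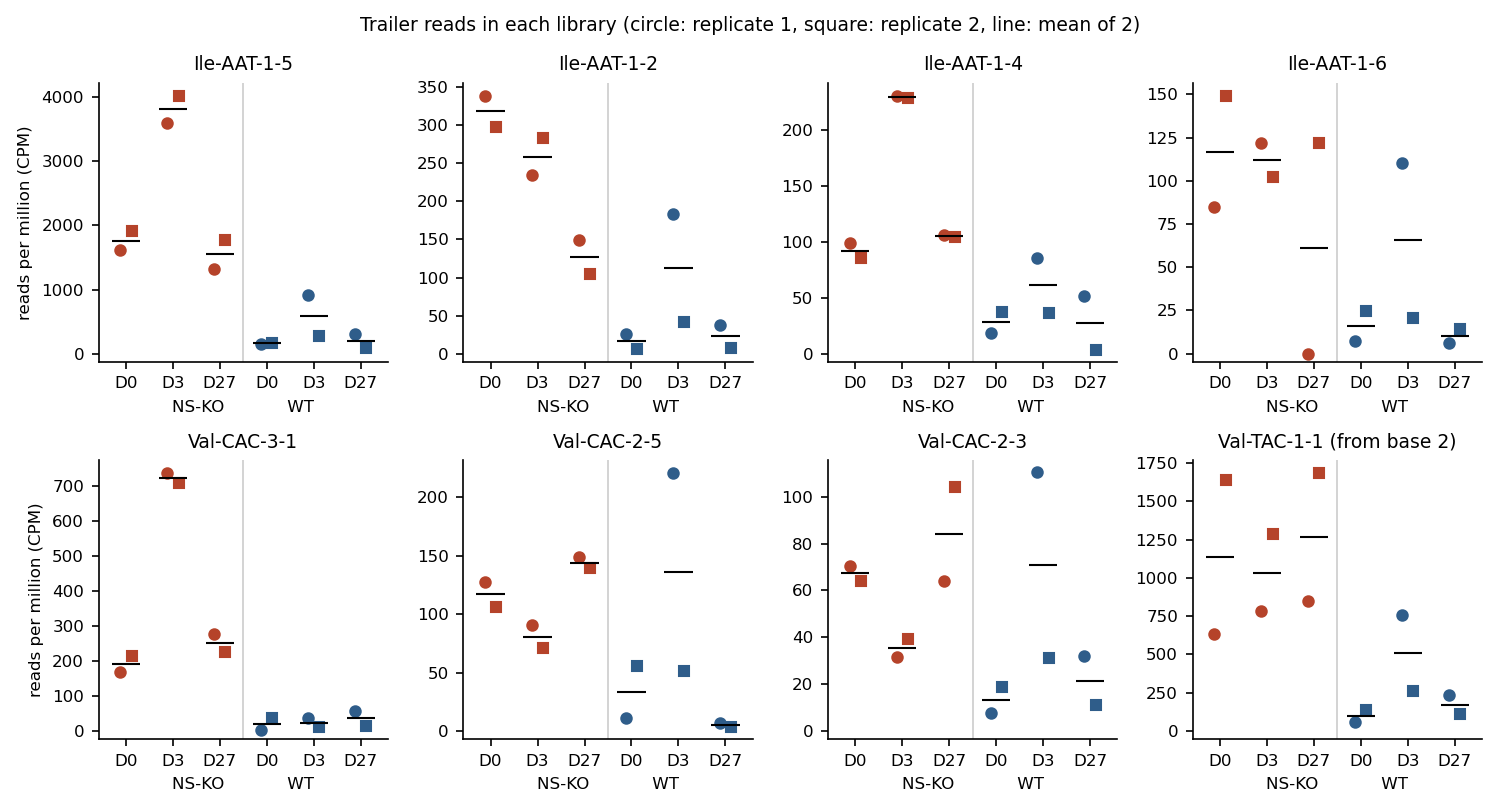
CPM (vertical axis, linear, each panel with its own range) of Ile and Val trailers in each of the 12 libraries, with NS-KO left of WT and days in order. Circles are replicate 1, squares replicate 2 and lines the mean of both. Ile-AAT-1-5 and Val-CAC-3-1 show no overlap between NS-KO and WT, and the high WT point in most panels is WT D3 replicate 1.

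Whether the trailers moved with injury was tested by day within each genotype (limma, with Benjamini-Hochberg adjustment over all 173 or 625 sums). In NS-KO livers the Ile sum was 2.80-fold higher at D3 than at D0 (log2 1.48, SE 0.33, adjusted p = 0.00576). The Val sum was 2.68-fold higher in the fit and did not pass (log2 1.42, SE 0.49, adjusted p = 0.0521). With reads from base 1 or 2 its log2 change was smaller, at 0.87 (SE 0.42, adjusted p = 0.152). Of the 2 sums, 1 was called higher, against 26 of 173 over all sums (15.0%). The Ile call depends on the scaling, since its change was 0.93 on library totals only (adjusted p = 0.236) and 1.11 per reads that are not tRF-5c (adjusted p = 0.0577).

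Of the Ile and Val trailers, 3 rose at D3 in NS-KO livers. Val-CAC-3-1 rose 5.08-fold (log2 2.35, SE 0.54, adjusted p = 0.00840), Ile-AAT-1-5 rose 3.17-fold (log2 1.66, SE 0.37, adjusted p = 0.00664) and Ile-AAT-1-4 rose 3.13-fold (log2 1.64, SE 0.53, adjusted p = 0.0460). These are 3 of 7 trailers, against 83 of 625 over all sums (13.3%), and the median log2 change was 0.46 over the 7 and −0.07 over all. The log2 changes of the others were 0.24 for Ile-AAT-1-2, 0.46 for Ile-AAT-1-6, 0.02 for Val-CAC-2-5 and −0.26 for Val-CAC-2-3, none past the threshold. The 7 leave out Val-TAC-1-1 and Ile-AAT-1-1, which were read mainly from base 2. With both starts, Val-TAC-1-1 changed by 0.48 (SE 0.46, adjusted p = 0.501) in NS-KO livers. In WT livers its D3 change was 1.39 (SE 0.46, adjusted p = 0.604). Ile-AAT-1-1 changed by 0.90 in NS-KO livers (SE 0.69, adjusted p = 0.404). Of the calls, only Val-CAC-3-1 passed on library totals only (1.85, adjusted p = 0.0435) and per reads that are not tRF-5c (1.98, adjusted p = 0.0269). Without NS-KO D0 replicate 1 the adjusted p was 0.0574 for both Val-CAC-3-1 and Ile-AAT-1-5, and Ile-AAT-1-4 lost its call in 10 of 12 fits with a library left out.

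In NS-KO livers, Ile tRF-1s were lower at D27 than at D3 (log2 −1.98, SE 0.33, adjusted p = 0.000715), as were Ile-AAT-1-5 (−2.04, SE 0.37, adjusted p = 0.00216) and Val-CAC-3-1 (−2.15, SE 0.54, adjusted p = 0.0165). The Val sum did not pass (−1.34, SE 0.48, adjusted p = 0.0528). Of the 2 sums, 1 was called lower, against 33 of 173 over all sums (19.1%), and of the 7 trailers, 2, against 77 of 625 (12.3%). On library totals only none of the 3 passed, with −1.25 for the Ile sum (adjusted p = 0.0969), −1.31 for Ile-AAT-1-5 (adjusted p = 0.0838) and −1.48 for Val-CAC-3-1 (adjusted p = 0.0972). Val-CAC-3-1 also missed the threshold per reads that are not tRF-5c (−1.53, adjusted p = 0.0619), without NS-KO D3 replicate 2 (adjusted p = 0.115) and without NS-KO D27 replicate 2 (adjusted p = 0.121). Between D27 and D0 of NS-KO livers no family and no trailer passed, the Ile sum differing by −0.50 (SE 0.33, adjusted p = 0.413). At an unadjusted p under 0.05, 1 of 7 trailers was lower at D27, which was Ile-AAT-1-2 (−1.34, SE 0.58, adjusted p = 0.245), against 118 of 625 sums in either direction (18.9%).

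In WT livers no family or trailer passed at D3 against D0 in the limma fits. The Ile sum differed by 0.85 (SE 0.33, adjusted p = 0.418) and the Val sum by 0.97 (SE 0.49, adjusted p = 0.527). At an unadjusted p under 0.05 were 3 of 7 trailers (Ile-AAT-1-2, Ile-AAT-1-5 and Val-CAC-2-3), against 47 of 625 sums (7.52%), and 0 of 625 rose after adjustment. Val-CAC-3-1 differed by −0.19 (SE 0.54). Ile values in the 2 WT D3 libraries, 1337 and 414 CPM, were far apart. At D27 against D0 no WT family or trailer passed. At D27 against D3 none passed in WT livers either, with −0.98 for the Ile sum (SE 0.33, adjusted p = 0.176, unadjusted p = 0.0121) and −0.98 for the Val sum (SE 0.49, adjusted p = 0.327). The lowest unadjusted p of a trailer was that of Val-CAC-2-5 (−2.32, SE 0.52, adjusted p = 0.223, unadjusted p = 0.000654), the only 1 of 7 under 0.05, against 71 of 625 sums (11.4%). Val-CAC-2-5 passed on library totals only (−2.71, adjusted p = 0.0145) and without WT D3 replicate 2 (−2.78, adjusted p = 0.0186). Whether the change from D3 to D27 differed between genotypes was not tested.

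The D3 change itself was compared between genotypes. For Val-CAC-3-1 it was larger in NS-KO than in WT livers by 2.54 on the log2 scale (SE 0.76). This missed the threshold (adjusted p = 0.0543, unadjusted p = 0.00582), and the WT side had only 1 and 6 reads at D0 and 3 and 2 at D3. With each library left out the difference was 1.77 to 3.30 and the adjusted p 0.0366 to 0.212, passing only without WT D0 replicate 1. On library totals only it was 1.63 (adjusted p = 0.201), per reads that are not tRF-5c 2.09 (adjusted p = 0.126) and over reads from base 1 or 2 2.38 (adjusted p = 0.0812). For the Ile sum the difference was 0.64 (SE 0.47, adjusted p = 0.379), and its sign turned on library totals only (−0.69). The Val sum differed by 0.45 (SE 0.69, adjusted p = 0.696). No Ile or Val trailer was called, against 35 higher and 9 lower of 625 sums, and no family or trailer was called in the D27 interaction.

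**Figure D4:**
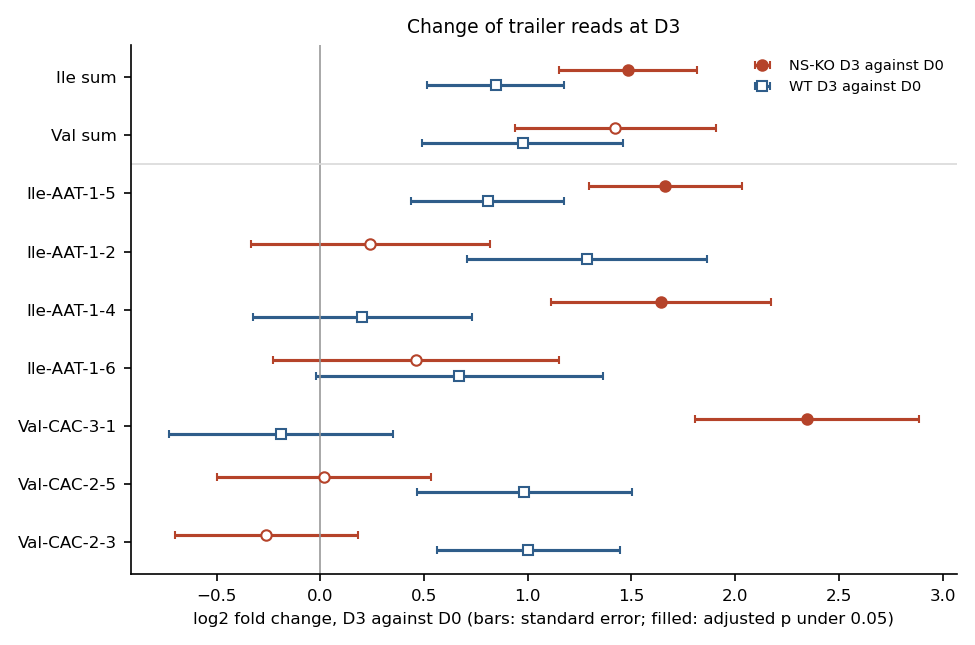
Log2 fold change of D3 over D0 (horizontal axis) with standard errors (bars) for the Ile and Val sums and trailers, NS-KO above WT in each pair. Val-CAC-3-1 shows the widest gap, with 2.35 in NS-KO and −0.19 in WT livers.

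Shares within each family do not depend on the library total. They are given by genotype as a description with no test, since the families were chosen by that contrast. Ile-AAT-1-5 made up 74.5 and 77.6% of Ile tRF-1 reads in NS-KO D0, 85.8 and 86.8% in NS-KO D3 and 83.8 and 81.6% in NS-KO D27 livers, against 68.4 and 68.3% in WT D0, 67.9 and 66.3% in WT D3 and 76.2 and 76.5% in WT D27 livers. Every NS-KO library lay above both WT libraries of its day at D0, D3 and D27, and the means were 81.7 ± 4.81% in NS-KO and 70.6 ± 4.52% in WT livers (SD, n = 6 each). Reads from base 1, of those from base 1 or 2, made up 89.3 ± 2.53% of Ile reads in NS-KO and 78.4 ± 4.23% in WT livers (SD, n = 6 each). This share pools trailers that differ in their starts. The base 2 share was lower in NS-KO than in WT livers for Ile-AAT-1-5 (4.28 against 7.59%). So it was for Ile-AAT-1-2 and Ile-AAT-1-6, with 3 and 1 base 2 reads. It was higher in NS-KO livers for Ile-AAT-1-4 (WT 41.38%) and Ile-AAT-1-3 (56.25 against 39.29%). For Ile-AAT-1-1 it was nearly equal (95.45 against 95.35%).

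Val-CAC-3-1 made up 41.4 and 41.7% of Val tRF-1 reads in NS-KO D0, 82.3 and 85.7% in NS-KO D3 and 52.0 and 39.4% in NS-KO D27 livers, against 14.3 and 31.6% in WT D0, 9.38 and 9.09% in WT D3 and 52.9 and 44.4% in WT D27 livers. Its share was highest in the NS-KO D3 libraries and lowest in the WT D3 libraries, while at D27 the genotypes overlapped. The means were 57.1 ± 21.4% in NS-KO and 26.9 ± 18.9% in WT livers (SD, n = 6 each). At 7 to 198 Val reads per library, single shares are coarse. Mean length was 14.5 nt in NS-KO and 14.6 nt in WT livers for Ile, and 17.4 nt in NS-KO and 17.1 nt in WT livers for Val. Ends in 3 or more T made up 78.8% of Ile reads in NS-KO and 79.0% in WT livers.

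Among all tRF-1 reads, the Ile share was 2.48 and 2.30% in NS-KO D0, 9.76 and 9.33% in NS-KO D3 and 3.07 and 3.72% in NS-KO D27 livers, against 1.10 to 1.74% in WT livers. The NS-KO and WT ranges of this share did not overlap. The Val share was 0.471 and 0.476% in NS-KO D0, 2.08 and 1.66% in NS-KO D3 and 1.04 and 0.982% in NS-KO D27 livers. In WT livers the Val share was 0.159 to 0.520%, so its ranges overlapped. Nothing is read from either range, since the families were chosen by this contrast. The other nuclear tRF-1 sums by amino acid moved in both directions at D3 in NS-KO livers. Of 14 sums, 3 rose, Asp (log2 4.20), Gln (3.42) and Lys (2.56), and 1 fell, the initiator methionine sum (−1.55). Of 7 Asp-GTC and Gln-CTG trailers, 6 rose (median 2.70), whereas of 2 methionine trailers, 1 fell and 0 rose. No sum in these lists passed at D3 in WT livers.

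Mature Ile and Val tRNAs gave fragments at both ends, and these were set beside the trailers. Of 19 sums of their 5′ fragments, 4 rose at D3 in NS-KO livers and 0 fell (median log2 0.86). All 4 were Val fragments, which were the tRF-5c of Val-AAC-4-1 (4.19, SE 0.53), that shared by Val-AAC-2-1, Val-AAC-3-1 and Val-CAC-3-1 (3.79, SE 0.58), that of Val-CAC-1-1 (3.75, SE 0.59) and the tiRNA-5, a longer 5′ fragment, of Val-CAC-1-1 (2.38, SE 0.69). Of 4 sums of 3′ fragments, 0 passed in either direction (median −0.33). In WT livers 0 of the 19 and 0 of the 4 passed at D3. Mitochondrial sums moved in the same NS-KO libraries, with 18 of 50 higher at D3 than at D0 and 2 lower.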

How the data were processed

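Small RNAs of 14 to 40 nt from 12 mouse livers had been sequenced after removal of modifications that block ligation or reverse transcription. Per the labels and the paper's methods, the authors trimmed reads with cutadapt, checked them with FastQC and aligned them with Bowtie, allowing 1 mismatch, to mature tRNAs and then to precursors. Tool versions and the genome build are not given in the sources used here, and coordinates match GRCm38. The deposited values are read numbers per sequence and library in an alignment listing that mixes text lines with other kinds of cells. They were therefore not treated as a count table, and the count test named in the methods (edgeR) was not run. The 12 single-library files repeat the series table, and 0 columns of other samples were left out.

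Each sequence was counted once. Reads were summed by subtype and amino acid (173 sums) and by subtype and set of tRNAs (625 sums) after a filter (CPM equal to 10 reads at the median library in 2 libraries, 15 reads in all). A named subtype was kept for 31 sequences that also carried the label Other, and 2 sequences shared with another amino acid were left out. Log2 CPM with a prior count of 2 and TMM factors was fitted with limma 3.58.1 (lmFit, eBayes with trend) in R 4.3.3, with 1 mean per group, an adjusted threshold of 0.05 and no pairing. TMM factors came from the 625 sums. Scripts were tested on simulated data with known changes at NS-KO D3 against D0. Over the 625 sums, 45 of 96 changes of 4-fold and 78 of 98 of 8-fold were recovered, and 11 of 134 calls were false. Over the 173 sums these were 9 of 15, 24 of 25 and 1 of 34. A trailer that did not pass may therefore still have changed.

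Trailers with at least 100 reads, and the 4 of each family with the most reads, are described by library. Members, lists and tests were chosen with earlier results of these data known. Alternatives were library totals, totals without tRF-5c, a prior count of 0.5, voom weights and no filter. Others were perfect matches, the replicate number as a block and each library left out. Reads of at least 16 nt were used for shares within a family only, and no level or day change was fitted over them. Reads from base 1 or 2, TMM factors from single sequences, and totals without tRF-5c for single trailers were added after seeing the data, as was D27 against D3. A permutation test of shares by genotype is not reported, since the families were chosen by that contrast. Same-numbered replicates were correlated above 0.1 in 1 of 15 pairs of groups (correlation −0.14 to 0.30), so the numbers do not pair the libraries.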

Additional observations from a re-analysis of the deposited data

Results flagged for a closer look

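Reads outside the tRF-1 class, which start at the second trailer base and are listed as Other, exceeded the limit of 3 reads at 7 trailers. The Val-TAC-1-1 trailer had 814 such reads against 16 tRF-1 reads, and Ile-AAT-1-1 had 83 against 4. Ile-AAT-1-4 had 126 against 136, and Ile-AAT-1-3 had 20 against 24. The others were Ile-AAT-1-5 with 97 against 1945, Val-CAC-3-1 with 6 against 326, and Ile-TAT-2-3 with 5 and no tRF-1 read. For Val-TAC-1-1 the reads from base 2 reached 635 to 1687 CPM in NS-KO and 60.1 to 761 CPM in WT livers.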

How the results depend on the processing

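All values are log2 fold changes unless named otherwise, and the cause of each difference was not tested. On library totals only, the Ile sum at D3 against D0 in NS-KO livers was 0.93 (adjusted p = 0.236), at D27 against D3 there −1.25 (adjusted p = 0.0969), and its interaction at D3 was −0.69, the Val interaction at D3 was −0.76, the Val sum at D27 against D0 in WT livers was 0.054, and the differences of NS-KO minus WT over days were 2.91 for Ile and 2.51 for Val. The trailers called at D3 in NS-KO livers then numbered 1, Val-CAC-3-1, and D3 changes there were −0.29 for Ile-AAT-1-2, −0.015 for Ile-AAT-1-6 and −0.47 for Val-CAC-2-5, with an Ile-AAT-1-5 interaction of −0.46. Per reads that are not tRF-5c, the Ile sum at D3 was 1.11 (adjusted p = 0.0577), the Val interaction at D3 −0.0726, Ile-AAT-1-2 −0.11 and Val-CAC-2-5 −0.28, and 1 trailer, Val-CAC-3-1, was called of those tested, which no longer included Val-CAC-2-3. With voom weights the Val sum passed at D3 in NS-KO livers (1.46, adjusted p = 0.0181) and at D27 against D3 there (−1.39), the Val sum at D27 in WT livers was 0.048 and Val-CAC-2-5 was −0.031. With a prior count of 0.5 that WT D27 value was 0.014. Over perfect matches, the Val sum was −0.20 at D27 in NS-KO and 0.12 at D27 in WT livers, with interactions of −0.0726 at D3 and −0.31 at D27. Without the filter on low sums the Ile-AAT-1-4 call was lost (adjusted p = 0.115). Over reads of at least 16 nt, the difference in ends of 3 or more T was 0.61 percentage points for Ile and −1.31 for Val.

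Among alternatives chosen after seeing the data, TMM factors from single sequences gave 1.73 for the Val sum at D3 in NS-KO livers (adjusted p = 0.0234), −1.59 for it at D27 against D3 there, 0.0034 for it at D27 in WT livers, 0.024 for the Ile-AAT-1-6 interaction and 1 trailer called in the D3 interaction, Val-CAC-3-1 (adjusted p = 0.0417). Reads from base 1 or 2 gave 0.87 for the Val sum at D3 in NS-KO livers (adjusted p = 0.152). At D27 against D3 there they gave −0.84 (adjusted p = 0.148). They also gave 0.47 for the Val sum at D27 in WT livers and Val interactions of −0.42 at D3 and −0.44 at D27.

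With each library left out in turn, the Ile sum at D3 in NS-KO livers ranged over 1.38 to 1.59 and passed each time, and the Val sum over 1.29 to 1.55, passing in 6 of 12 fits (adjusted p 0.0273 to 0.182). Trailers called at D3 in NS-KO livers numbered 0 to 3, with 0 without NS-KO D0 replicate 1, and 0 to 1 in the D3 interaction. The other ranges were −0.58 to 0.31 (Ile, WT D27), −0.81 to 0.083 (Ile, interaction D27), −0.079 to 0.25 (Val, NS-KO D27), −0.71 to 0.70 (Val, WT D27), −1.50 to −1.17 (Val, NS-KO D27 against D3), −0.26 to 1.15 (Val, interaction D3) and −0.62 to 0.79 (Val, interaction D27). D3 ranges of single trailers that changed sign were −0.11 to 0.14 for Val-CAC-2-5 and, for the interaction, −0.73 to 0.31 for Ile-AAT-1-6. Differences between genotypes ranged over 10.6 to 11.6 percentage points for the Ile-AAT-1-5 share, 8.86 to 12.99 for Ile starts at base 1, −0.19 to −0.067 nt for Ile length, and −1.48 to 1.11 (Ile) and −0.25 to 13.04 (Val) for ends of 3 or more T. With the replicate block, no call changed, and the Ile sum at D3 in NS-KO livers stayed at 1.48 (adjusted p = 0.00581). Depth limits the small trailers, since 1 read in a library is worth as much as 21.3 CPM.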

Other observations

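Ile-TAT trailers had no tRF-1 read, but reads that cross from the mature end into the trailer were present. Ile-TAT-2-1 had 148 such reads that match the precursor exactly and reach at least 4 bases into the trailer, of which 117 were of a single 21 nt sequence. They numbered 0 and 1 in NS-KO D0, 31 and 29 in NS-KO D3 and 8 and 13 in NS-KO D27 livers, against 4 and 0 in WT D0, 5 and 14 in WT D3 and 20 and 23 in WT D27 livers. Only 4 of the 148 ended in the run of T. Ile-TAT-1-1 had 30 crossing reads, and 29 ended in its run. Ile-AAT-1-5, with 1945 tRF-1 reads, had 31 crossing reads.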
